A study of Homo sapiens with 18 samples.

Results

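The NRF2 pathway was followed across the series through 9 genes: the regulators NFE2L2 and KEAP1, the detoxification and stress targets NQO1, HMOX1 and OSGIN1, and the thioredoxin and peroxiredoxin enzymes TXN, TXNRD1, PRDX1 and SRXN1. They were chosen by name, and all 9 were found once each among the 57905 Ensembl genes counted. RNA came from BE(2)-m17, a human neuroblastoma cell line, in 3 experiments numbered RNA1, RNA2 and RNA3. Every line carried the vector pSBbi-Hyg-APP, which holds a human APP cDNA. The empty vector control cells, labelled Puro, also carried pSBbi-Pur, and the ABCC1-overexpressing cells, labelled ABCC1(WT), carried pSBbi-Pur-ABCC1(WT) with a codon-optimized cDNA. The vectors are Sleeping Beauty transposons that integrate into the genome. Stable cells were selected with hygromycin and puromycin, no cloning step is described, and the drugs were left out during the experiments. Each of the 6 groups held 3 libraries, from 14000000 cells plated per well and lysed on day 4. ABCC1 encodes MRP1, a pump that exports glutathione and glutathione conjugates, and the comparison asked whether its overexpression went with a different level of these genes.

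NFE2L2 encodes NRF2, a transcription factor that switches on antioxidant and detoxification genes. KEAP1 holds NRF2 in the cytoplasm and passes it to a ubiquitin ligase for destruction, until oxidants or electrophiles modify KEAP1 and let NRF2 build up and enter the nucleus. There NRF2 pairs with a small MAF protein and binds antioxidant response elements in its targets, so its activity is set largely at the protein level and is often read from target transcripts such as NQO1 and HMOX1.

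The antioxidant response element core was searched as TGACNNNGC on both strands in RefSeq promoters of build GRCh38.p14, each running from 250 bases before to 50 bases after a start site. Entries were matched for 7 of the 9 genes, with 10 promoters in all; HMOX1 and PRDX1 had none. The letters occurred in 3 of these 10 promoters, those of TXNRD1 and KEAP1, and in 13.347% of the 35116 promoters of the table. The stretches around 4 of the 5 matches are shown, because these are the members whose promoters hold the letters, and the remaining one, of TXNRD1, is left out because its stretch runs past the start site. The capitals mark the match, and each sequence is given along the gene's own strand.
TXNRD1, chr12:104215664-104215704, plus strand: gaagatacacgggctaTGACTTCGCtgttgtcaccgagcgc
TXNRD1, chr12:104286914-104286954, plus strand: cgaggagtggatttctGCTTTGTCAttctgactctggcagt
KEAP1, chr19:10502801-10502841, minus strand: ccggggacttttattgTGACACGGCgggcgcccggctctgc
KEAP1, chr19:10502778-10502818, minus strand: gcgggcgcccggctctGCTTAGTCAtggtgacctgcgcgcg
The second TXNRD1 stretch and the second KEAP1 stretch carry the core on the opposite strand. The KEAP1 stretches overlap in part, and none of the 5 matches overlaps an AP-1 consensus site. A match describes these letters only, and no match in the windows of NFE2L2, NQO1, OSGIN1, TXN and SRXN1 says nothing of elements farther away.

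The depth was 27433393 to 57937653 assigned read pairs per library in RNA1, 19577853 to 30996228 in RNA2 and 8866994 to 13332413 in RNA3. The codon-optimized ABCC1 sequence had 0 to 15 counts in the control libraries and 51035 to 594404 counts in the ABCC1-overexpressing libraries, so every library matched its label. Of 12 adrenergic neuroblastoma markers, all 12 averaged at least 1 CPM in every group, and their summed level ran from 4609 to 8016 CPM. Among them MYCN averaged 2888 to 5564 CPM. Values are in CPM, the counts scaled to library size after TMM normalization, and log2FC is ABCC1-overexpressing minus control. A gene counts as called where the edgeR quasi-likelihood test gave a Benjamini-Hochberg adjusted p of 0.05 or less over all genes tested. In such bulk RNA, fewer cells with a transcript and less of it per cell cannot be told apart.

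Reads that do not come from the genes' own messages set a floor under the weakly expressed members. This floor was measured on 372 olfactory receptor genes, which these cells are taken not to express. It was 0.00377 to 0.00529 CPM per kilobase of exon in RNA1. It reached 0.484 to 0.660 in the RNA2 control libraries against 0.144 to 0.426 in the RNA2 ABCC1-overexpressing libraries, and 1.47 to 1.64 against 1.13 to 1.42 in RNA3. The ranges of the lines did not overlap in any experiment, and the control cells had more such reads each time. For markers of other cell types, the summed level over the 9 of 10 measured was 81.8 to 109 CPM in the controls and 76.0 to 87.3 CPM in the ABCC1-overexpressing cells of RNA2, and 120 to 129 against 99.0 to 116 CPM in RNA3. In RNA1 the sum was 122 to 127 against 185 to 189 CPM. The sums overlapped in RNA2. The fibroblast gene DCN averaged 38.5 CPM in the controls against 76.4 CPM in RNA1, 20.01 against 24.0 CPM in RNA2 and 15.1 against 14.5 CPM in RNA3. For LUM, also of fibroblasts, these values were 83.1 against 108, 41.4 against 37.5 and 19.3 against 20.5 CPM. Of the marker list, 2 genes were called higher in RNA1, 1 lower in RNA2 and 1 lower in RNA3. The part of either measure in the members' differences was not tested, except for the subtraction given below. None of the 9 markers measured was at 0 in all libraries of a group, and the leukocyte marker PTPRC averaged 0.0230 and 0.0280 CPM in the RNA1 lines, 5.11 and 2.47 CPM in RNA2, and 16.4 and 9.89 CPM in RNA3.

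In RNA1, 4 of the 9 genes passed the test, of which NQO1, OSGIN1 and TXNRD1 were higher and NFE2L2 was lower in ABCC1-overexpressing cells. In that experiment 37.6% of the 16995 genes tested passed, 17.9% as higher and 19.7% as lower, so 4 of 9 is a share near the background. OSGIN1 passed the filter on low counts only through the ABCC1-overexpressing libraries, and its call is a description. With at least 10 counts asked of every library OSGIN1 was not tested, and 3 members passed against 38.1% of genes. No member passed in RNA2, where 1.7% of 34091 genes did, or in RNA3, where 2.8% of 36509 did. At an unadjusted p below 0.05, edgeR gave 3 members in RNA2 (background 21.2%) and 1 in RNA3 (background 15.2%). DESeq2 called 2 members in RNA2 and 1 in RNA3, where it called 18.6% and 14.2% of the genes with an adjusted p. Limma-voom called 0 in both, against 3.82% and 2.83% of all genes. The replicates varied far less in RNA1, with a typical biological coefficient of variation of 5.67% against 35.3% in RNA2 and 19.7% in RNA3.

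**Figure D1:**
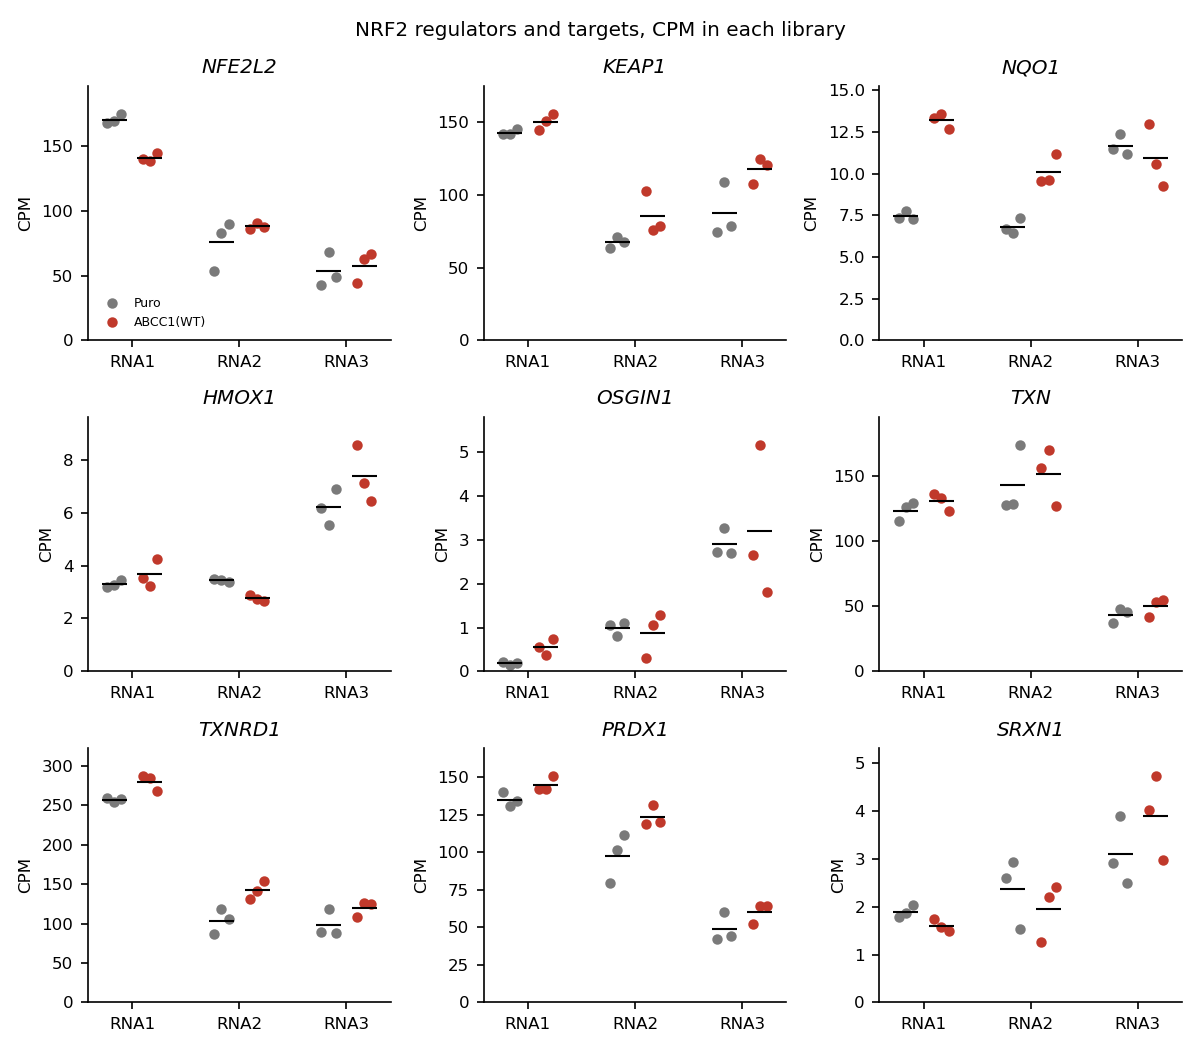
Level of each gene in each library, in CPM on linear axes from 0, with grey points for Puro, red points for ABCC1(WT) and a black line at the mean of 3 libraries. NQO1 separates the lines in RNA1 and RNA2 but not in RNA3.

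NFE2L2 (ENSG00000116044; GRCh37, chromosome 2, 178092323 to 178257425, minus strand) was the only member called lower, and in RNA1 alone. In RNA1 the control libraries had 167, 169 and 174 CPM and the ABCC1-overexpressing libraries 139.8, 138.5 and 144.6 CPM. All 3 ABCC1-overexpressing libraries were below all 3 controls, a decrease of 17.2% (log2FC −0.27, SE 0.04, n = 3 per line, adjusted p = 3.30e-04). In the RNA1 contrast of the joint fit of all 18 libraries the call was lost (log2FC −0.17, adjusted p = 0.914). That fit gives each gene a single spread for all groups, although the replicates varied far less in RNA1 than in RNA2 and RNA3. The RNA2 controls had 53.7, 82.9 and 89.9 CPM against 85.9, 90.8 and 87.1 CPM. The third control lay within the ABCC1-overexpressing range and the first stood below all other libraries. The log2FC of 0.22 had a 95% interval from −0.16 to 0.59, and it was 0.05 without the first control. In RNA3 the values of 42.4, 67.9 and 49.1 CPM and of 44.3, 62.4 and 66.4 CPM also overlapped (log2FC 0.12, interval −0.22 to 0.46). The difference of the effect between experiments was not called (adjusted p = 0.818). Of the 5907 exon bases of NFE2L2, 19.9% lie in exons of other annotated genes, and read pairs on such bases were counted for neither gene.

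KEAP1 (ENSG00000079999; chromosome 19, 10596796 to 10614417, minus strand), the NRF2 inhibitor, was not called in any single experiment. In RNA1 its control libraries had 141.7, 141.8 and 145 CPM and the ABCC1-overexpressing libraries 144.5, 151 and 156 CPM. The ranges overlapped slightly, and the log2FC of 0.07 had an interval from −0.02 to 0.16. The RNA2 values were 63.4, 70.9 and 68.0 CPM in controls and 103, 75.8 and 78.6 CPM in ABCC1-overexpressing cells. These did not overlap, yet the log2FC of 0.35 (SE 0.17) gave an adjusted p of 0.234, and it was 0.20 without the first ABCC1-overexpressing library. In RNA3 the controls had 74.9, 109 and 78.4 CPM against 108, 125 and 121 CPM. Only the second control reached into the other range (log2FC 0.43, SE 0.18, adjusted p = 0.203), and without that library KEAP1 passed the test, at a log2FC of 0.63 and an adjusted p of 0.00112. Leaving it out raised the genes called in RNA3 from 1021 to 2762, the most for any single library, so the pass is not particular to KEAP1.

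NQO1 (ENSG00000181019; chromosome 16, 69740899 to 69760854, minus strand), a quinone reductase and a standard readout of NRF2, showed the clearest difference. In RNA1 it had 318, 211 and 229 counts in the controls and 754, 437 and 735 counts in the ABCC1-overexpressing libraries. That is 7.31, 7.75 and 7.26 CPM against 13.3, 13.6 and 12.7 CPM, with every ABCC1-overexpressing library above every control. The mean of 7.44 ± 0.27 CPM (SD, n = 3) rose to 13.2 ± 0.46 CPM, a fold of 1.77 (95% interval 1.59 to 1.98, log2FC 0.83, adjusted p = 9.96e-06). The call held with every alternative tried. In RNA2 the controls had 6.68, 6.46 and 7.32 CPM and the ABCC1-overexpressing libraries 9.55, 9.62 and 11.2 CPM. The lines again did not overlap, but the fold of 1.49 (interval 1.08 to 2.04) did not pass (adjusted p = 0.151). In RNA3 the controls had 11.5, 12.3 and 11.2 CPM against 12.99, 10.6 and 9.24 CPM. The ABCC1-overexpressing libraries lay on both sides of the controls, with a fold of 0.938 (interval 0.706 to 1.24).

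The experiments were then compared directly for NQO1, in the joint fit with its single spread per gene for all groups. The test over all 3 gave an adjusted p of 0.0818 and was not called. Taken alone, the RNA3 effect was 0.94 log2 units below the RNA1 effect (SE 0.24, adjusted p = 0.0328), whereas RNA2 and RNA1 differed by −0.34 (SE 0.24, adjusted p = 0.840). The joint test passed with DESeq2 (adjusted p = 0.00352), with genes limited to those of at least 10 counts in every library (0.0402) and without the first ABCC1-overexpressing library of RNA2 (0.0451); over all alternatives the adjusted p ran from 0.00352 to 0.281.

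Background reads took up part of the NQO1 level in the repeat experiments. They came to 0.212% and 0.0997% of its level in the control and ABCC1-overexpressing cells of RNA1, 27.5% and 9.57% in RNA2, and 44.1% and 37.1% in RNA3. With each library's own background subtracted, an alternative added after seeing the data and given without a test, NQO1 was 1.77-fold higher in RNA1, 1.85-fold in RNA2 and 1.06-fold in RNA3. In RNA2 the subtracted level was 1.52 ± 0.14 CPM per kilobase in the controls and 2.81 ± 0.19 in ABCC1-overexpressing cells (SD, n = 3), without overlap. In RNA3 it was 2.01 ± 0.28 against 2.12 ± 0.43, with overlap. With background charged only to exon bases that no other gene shares, also added after seeing the data and without a test, the ratios were 1.77, 1.76 and 1.02. Of the 3254 exon bases of NQO1, 575 (17.7%) are shared with ENSG00000261602 on the opposite strand, and read pairs on them were counted for neither gene. These are all the exon bases of ENSG00000261602, so its 0 counts in every library do not show whether it is expressed.

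**Figure D2:**
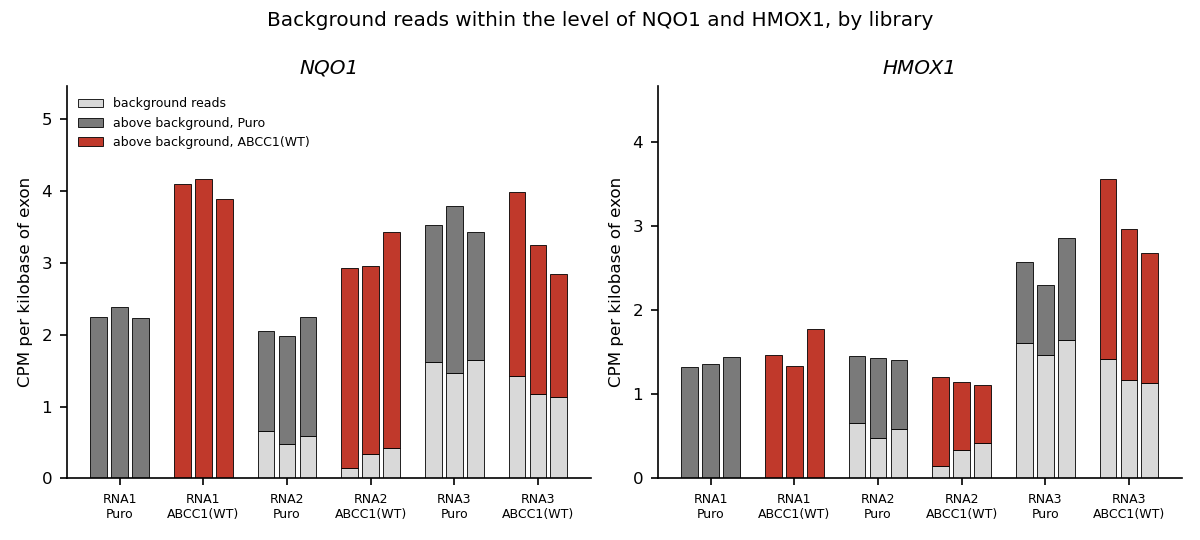
Level of NQO1 and HMOX1 in each library in CPM per kilobase of exon, with bars from 0 split into background reads (light grey) and the rest (dark grey for Puro, red for ABCC1(WT)). Above background NQO1 is higher in ABCC1(WT) in RNA1 (1.77-fold) and RNA2 (1.85-fold) but not in RNA3 (1.06-fold). In RNA3, background reads make up 61.3% of the HMOX1 level in Puro and 40.6% in ABCC1(WT).

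HMOX1 (ENSG00000100292; chromosome 22, 35776354 to 35790207, plus strand), the heme oxygenase that is induced by heme and oxidants, was low and was not called. RNA1 controls had 3.20, 3.27 and 3.46 CPM and ABCC1-overexpressing cells 3.54, 3.22 and 4.26 CPM, which overlapped (log2FC 0.17, interval −0.10 to 0.45). RNA2 controls had 3.49, 3.45 and 3.37 CPM against 2.90, 2.75 and 2.68 CPM. All ABCC1-overexpressing libraries were below the controls there, at a log2FC of −0.31 with an interval from −1.07 to 0.45 and an adjusted p of 0.646. In RNA3, 6.19, 5.53 and 6.88 CPM stood against 8.55, 7.13 and 6.44 CPM, with overlap (log2FC 0.25, adjusted p = 0.703). Background reads made up 40.3% of the control level and 26.6% of the ABCC1-overexpressing level in RNA2, and 61.3% and 40.6% in RNA3. After subtraction the RNA2 levels were 0.853 ± 0.084 and 0.852 ± 0.192 CPM per kilobase (SD, n = 3), a ratio of 0.999. The RNA3 levels were 1.01 ± 0.20 and 1.83 ± 0.30, a ratio of 1.82 without overlap between the lines, which has no test.

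OSGIN1 (ENSG00000140961; chromosome 16, 83981887 to 83999937, plus strand), an oxidative stress induced growth inhibitor, had the fewest counts of the 9 in RNA1. The controls had 9, 4 and 6 counts and the ABCC1-overexpressing libraries 31, 12 and 43. In CPM these were 0.207, 0.147 and 0.190 against 0.548, 0.372 and 0.741, with no overlap. The fitted fold was 3.09, with a wide interval of 1.80 to 5.29. Every control had fewer than 10 counts, so the gene entered the fit only through the line in which it was higher, and no test result is read from it. In the RNA1 contrast of the joint fit of all 18 libraries it did not pass (log2FC 1.70, adjusted p = 0.0782). In RNA2 and RNA3 its level was at or below that of background reads in 6 of 6 and 5 of 6 libraries, or 4 and 5 of 6 with background charged only to unshared exon bases, and no difference was detectable there. Its counts were 24, 24 and 23 against 8, 23 and 40 in RNA2, and 30, 36 and 26 against 31, 60 and 22 in RNA3. Both comparisons overlapped, and 13.9% of its exon bases are shared with ENSG00000260300.

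**Figure D3:**
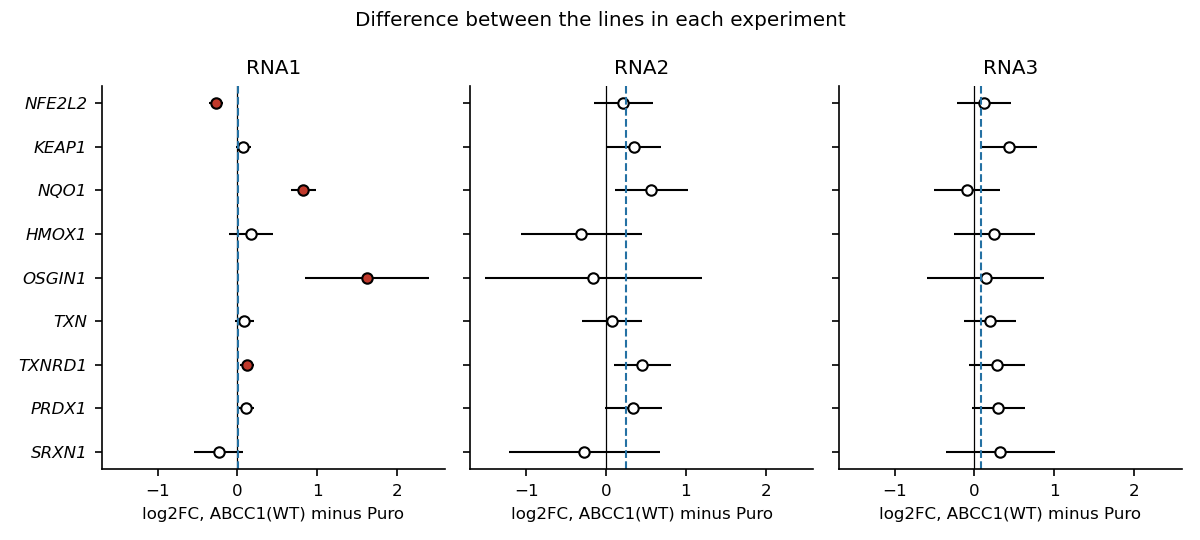
Log2FC of each gene in each experiment, with the 95% interval as a bar, filled red where the adjusted p-value is at most 0.05. The dashed blue line is the median log2FC of all genes of at least 10 CPM, which is 0.00512 in RNA1, 0.252 in RNA2 and 0.0777 in RNA3. Only RNA1 has called genes, of which OSGIN1 is a description only, and its intervals are the narrowest for 8 of the 9.

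The thioredoxin system passes electrons from NADPH through thioredoxin reductase (TXNRD1) to thioredoxin (TXN), which reduces peroxiredoxins such as PRDX1, and sulfiredoxin (SRXN1) rescues peroxiredoxins that peroxide has overoxidized. TXNRD1 (ENSG00000198431; chromosome 12, 104609557 to 104744061, plus strand) had 259, 254 and 258 CPM in the RNA1 controls and 287, 284 and 268 CPM in the ABCC1-overexpressing libraries. The lines did not overlap, and TXNRD1 rose by 8.80% (log2FC 0.12, SE 0.04, adjusted p = 0.0358). This call was lost in 8 of 14 alternatives, DESeq2 and the loss of any of 5 of the 6 libraries among them, while the direction held. In RNA2 the controls had 86.4, 119 and 106 CPM against 132, 141 and 154 CPM, again apart (log2FC 0.46, SE 0.17, adjusted p = 0.144). In RNA3, 88.7, 118 and 88.0 CPM stood against 108, 126 and 125 CPM. There the second control reached into the ABCC1-overexpressing range, at a log2FC of 0.29 and an adjusted p of 0.468, or 0.45 and 0.0275 without that control. Without it 2762 genes passed in RNA3, against 1021 with all libraries.

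PRDX1 (ENSG00000117450; chromosome 1, 45976708 to 45988719, minus strand) followed TXNRD1 closely. RNA1 had 140.0, 131 and 134 CPM in controls and 142.5, 142.4 and 151 CPM in ABCC1-overexpressing cells, just apart (log2FC 0.11, adjusted p = 0.0759). RNA2 had 79.5, 102 and 112 CPM against 119, 131 and 120 CPM, also apart (log2FC 0.34, adjusted p = 0.256). RNA3 had 42.4, 60.2 and 44.1 CPM against 52.6, 64.2 and 64.0 CPM, which overlapped (log2FC 0.30, adjusted p = 0.397). Without the second RNA3 control PRDX1 passed, at a log2FC of 0.49 and an adjusted p of 0.0205, while the genes called rose from 1021 to 2762.

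TXN (ENSG00000136810; chromosome 9, 113006091 to 113018920, minus strand) overlapped between the lines in each experiment. It averaged 124 ± 7.4 and 131 ± 6.5 CPM in RNA1, 143.5 ± 26.5 and 152 ± 22.0 CPM in RNA2, and 43.8 ± 5.8 and 50.2 ± 7.4 CPM in RNA3 (control, then ABCC1-overexpressing; SD, n = 3). The log2FC was 0.09, 0.08 and 0.20, and in RNA1 the 95% interval was from −0.03 to 0.20. Without the third ABCC1-overexpressing library of RNA1, TXN passed there at a log2FC of 0.13 and an adjusted p of 0.0159.

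SRXN1 (ENSG00000271303; chromosome 20, 627259 to 634014, minus strand) was measured poorly. Of its 2698 exon bases, 2292 are shared with ENSG00000270299 on the same strand, and pairs on those 85.0% of bases went to neither gene. It kept 78, 51 and 64 counts in the RNA1 controls and 99, 51 and 86 in the ABCC1-overexpressing libraries, or 1.79, 1.87 and 2.03 CPM against 1.75, 1.58 and 1.48 CPM. The lines were just apart (log2FC −0.24, interval −0.54 to 0.07, adjusted p = 0.211). In RNA2 and RNA3 the log2FC was −0.27 (SE 0.46) and 0.32 (SE 0.34), with overlap in both. On its 406 unshared exon bases background reads came to 9.89% and 20.6% of the control level.

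The counts of members whose lines did not overlap were read against those of all genes. In RNA1, 4 members, OSGIN1 among them, were higher and 2 lower in every ABCC1-overexpressing library, while 50.4% of all genes were apart, 24.7% as higher and 25.7% as lower. In RNA2, KEAP1, NQO1, TXNRD1 and PRDX1 were higher and HMOX1 was lower, and 29.8% of all genes were apart, 13.5% as higher and 16.4% as lower. In RNA3 none of the 9 was apart, and 19.5% of all genes were. RNA2 has a scaling limit as well: the median log2FC was −0.189 over all genes tested, many of them near the background, and 0.252 over the 10058 genes of at least 10 CPM. Relative to the latter, the RNA2 log2FC was 0.32 for NQO1, 0.20 for TXNRD1, 0.10 for KEAP1, 0.09 for PRDX1, −0.03 for NFE2L2, −0.17 for TXN, −0.41 for OSGIN1, −0.53 for SRXN1 and −0.56 for HMOX1.

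With all 18 libraries fitted together, the mean effect over the 3 experiments passed for NQO1, KEAP1, TXNRD1 and PRDX1, all higher in ABCC1-overexpressing cells. This fit gives each gene a single spread for all 6 groups. The typical biological coefficient of variation was 5.67%, 35.3% and 19.7% in RNA1, RNA2 and RNA3, a difference that its p-values do not take in. In that fit 12.9% of 46225 genes passed, 9.39% as higher and 3.55% as lower, and among the 10574 genes of at least 10 CPM 36% passed as higher with a median common log2FC of 0.194. The common log2FC was 0.50 for NQO1 (SE 0.10, adjusted p = 1.76e-04), 0.35 for KEAP1 (adjusted p = 0.00653), 0.35 for TXNRD1 (0.00624) and 0.31 for PRDX1 (0.0175). PRDX1 lost this call in 5 of 23 alternatives, with an adjusted p of up to 0.103. With the scaling set on genes of at least 10 CPM only, an alternative added after seeing the data, KEAP1 and TXNRD1 kept the call at 0.15 and 0.16, PRDX1 lost it at 0.12 (adjusted p = 0.103), and NQO1 was below the limit and not in the fit. The common log2FC of the other 5 did not pass: OSGIN1 0.59 (SE 0.29), TXN 0.19 (SE 0.10), HMOX1 0.10 (SE 0.14), NFE2L2 0.09 (SE 0.10) and SRXN1 5.98e-05 (SE 0.14). For NFE2L2 and TXN the sign turned with the scaling on genes of at least 10 CPM, to −0.11 and −0.02. No member was called for a difference of its effect between experiments by edgeR, where 1.19% of genes were. DESeq2 called 1, NQO1, against 2.77% of genes. In edgeR the unadjusted p of this difference was 0.0012 for NQO1 and 0.038 for OSGIN1, and no test result is read from OSGIN1.

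Per kilobase of exon, the members spanned a wide range of levels, and their order was nearly the same in every group. In the RNA1 controls TXN was highest at 108 CPM per kilobase, followed by PRDX1 at 88.6, TXNRD1 at 38.5, KEAP1 at 38.0, NFE2L2 at 28.8, NQO1 at 2.29, HMOX1 at 1.38, SRXN1 at 0.704 and OSGIN1 at 0.0524. Of these neighbours TXNRD1 and KEAP1 overlapped between libraries and all others were apart. In RNA3 the controls of TXN (38.3), PRDX1 (32.1) and KEAP1 (23.3) overlapped their neighbours, KEAP1 stood above TXNRD1 (14.7), and SRXN1 (1.15) and OSGIN1 (0.839) overlapped. The SRXN1 level is an underestimate for the reason given above. Levels were compared between experiments only in this order, since RNA1 was prepared with another library kit.

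**Figure D4:**
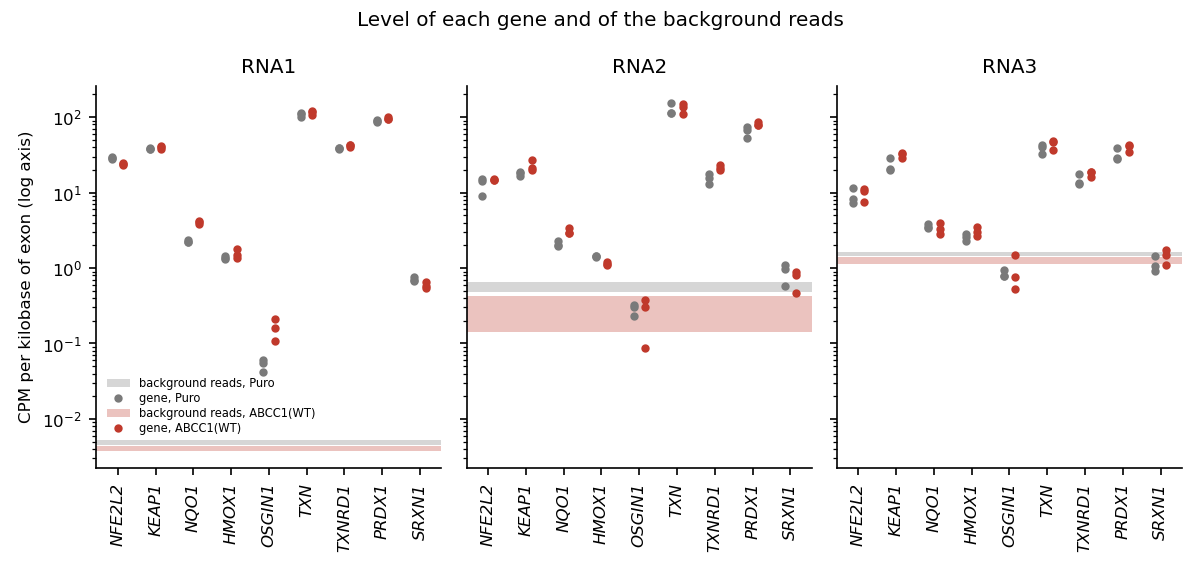
Level of each gene in CPM per kilobase of exon, on a log axis, with grey points for Puro libraries and red points for ABCC1(WT) libraries, and bands for the range of background reads on 372 olfactory receptor genes in each line. All 9 genes lie above the bands in RNA1, whereas OSGIN1 is at or below its library's background reads in 6 of 6 libraries of RNA2 and 5 of 6 of RNA3. SRXN1 is at or below it in 1 and 4 on its full exon length, and in 0 and 0 when background is charged only to its unshared bases.

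The members varied together in part. After subtracting each experiment's mean, Pearson's r of log2 CPM over the 18 libraries was 0.91 for TXNRD1 and PRDX1, 0.80 for KEAP1 and PRDX1, 0.77 for KEAP1 and TXNRD1, and 0.77 for NFE2L2 and PRDX1. These were the highest of all pairs. Pearson's r was lower between NQO1 and TXNRD1 (0.44), NQO1 and KEAP1 (0.23) and NQO1 and NFE2L2 (−0.17). It ran from −0.475 (NFE2L2) to 0.28 (OSGIN1) between HMOX1 and the other members. For SRXN1 it ran from −0.26 (TXN) to 0.32 (OSGIN1). The libraries share their lines, depth and background, so these values are descriptive. The 3 genes most like NQO1 among 10476 genes were PPL (r = 0.90), EML3 (0.89) and ARHGAP45 (0.88), against a median of 0.16 over all these genes. Those most like NFE2L2 were YWHAZ (0.96), RPN1 (0.96) and SCFD1 (0.96), against a median of 0.44.

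Other genes of the pathway were read from 6 lists of 73 genes in all. In RNA1, 12 of the 68 tested were higher and 12 were lower, or 35.3% called, with a median log2FC of 0.03. In RNA2, 0 of 71 were higher and 1 was lower, and in RNA3, 1 of 71 was higher and 1 lower, or 2.82%. These shares are near those of all genes, and no gene was called in all 3 experiments. In the joint fit the mean effect over the experiments passed for 15 of the 71 as higher and 2 as lower, against 9.39% and 3.55% of all genes. Among all genes of at least 10 CPM, 36% passed as higher. The split turned with the scaling. Set on genes of at least 10 CPM, 4 of 55 passed as higher and 14 as lower, against 19.3% and 22.1% of all genes in that fit. The 4 that passed as higher with both scalings were MAFF (common log2FC 0.84, or 0.63 with the latter), BACH2 (0.52, or 0.32), PALB2 (0.52, or 0.31) and PRDX6 (0.41, or 0.22). Both that passed as lower, SESN3 (−0.42, or −0.61) and GLRX (−0.36, or −0.56), did so with either scaling. These 6 were chosen by that outcome.

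Among 15 other regulators of NRF2 and its binding sites, 3 rose and 4 fell in RNA1, against 17.9% and 19.7% of all genes. MAFF, a small MAF partner, had 17.7 ± 0.81 CPM in controls and 34.0 ± 0.66 CPM in ABCC1-overexpressing cells (SD, n = 3), a 1.92-fold rise (adjusted p = 7.51e-07). It was also called in RNA3, at 1.72-fold (15.5 ± 2.6 to 26.6 ± 0.99 CPM, adjusted p = 0.00164), and was 1.495-fold in RNA2 with no overlap between the lines and an adjusted p of 0.0952. MAFF was the one pathway gene called in the same direction in RNA1 and RNA3 besides SESN3. BACH2, a repressor that competes for these sites, rose 1.97-fold in RNA1 (adjusted p = 6.09e-06) and had folds of 1.202 and 1.09 in RNA2 and RNA3, neither called. PALB2, which can bind KEAP1, rose 1.32-fold in RNA1, and its folds of 1.41 and 1.38 in RNA2 and RNA3 did not pass, although the lines were apart each time. CUL3, NFE2L1, SQSTM1 and GSK3B fell in RNA1, by 0.21, 0.14, 0.19 and 0.19 on the log2 scale. None of the 4 was called again, with log2FC of 0.08, 0.24, −0.01 and 0.31 in RNA2 and −0.05, 0.29, −0.0044 and −0.02 in RNA3. They were named after their values were seen.

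Among 17 other thioredoxin, peroxiredoxin and peroxide enzymes measured, 1 rose and 3 fell in RNA1, against 17.9% and 19.7% of all genes. PRDX6, a peroxiredoxin named after its values were seen, rose 1.12-fold in RNA1 (171 to 192 CPM, adjusted p = 0.0167), and its folds of 1.57 and 1.16 in RNA2 and RNA3 did not pass. SESN3, a sestrin of the stress response, fell by 0.59 on the log2 scale in RNA1 (209 to 139 CPM, adjusted p = 1.39e-06) and by 0.67 in RNA3 (104 to 65.6 CPM, adjusted p = 0.0135). In RNA2 it had a log2FC of −0.21 and was not called. GLRX (glutaredoxin) fell to 0.702-fold and SESN2 to 0.797-fold in RNA1. SESN2 was 0.992-fold in RNA2 and 0.793-fold in RNA3, neither called. The lines of GLRX were apart and lower in RNA2 (0.704-fold) and RNA3 (0.838-fold) too, without passing the test.

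Glutathione is made by enzymes that NRF2 induces and is exported by ABCC1. Of 6 glutathione genes tested in RNA1, 3 rose and 0 fell, against 17.9% and 19.7% of all genes, and nothing particular to so few genes can be read from the count. GCLC and GCLM, the subunits of the rate-limiting enzyme of glutathione synthesis, rose 1.18-fold (47.5 to 56.3 CPM, adjusted p = 0.0128) and 1.15-fold (17.7 to 20.4 CPM, adjusted p = 0.0230), and SLC7A11, the cystine importer, rose 1.101-fold (adjusted p = 0.0167). In RNA2 and RNA3 none of 8 was called, and the folds were 1.06 and 0.991 for GCLC, 1.03 and 1.09 for GCLM, and 1.28 and 1.08 for SLC7A11.

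Of 6 NADPH-supplying enzymes, 0 rose and 2 fell in RNA1, against 17.9% and 19.7% of all genes, and the other 4 were not called. PGD, of the pentose phosphate pathway, fell to 0.769-fold (198 to 153 CPM, adjusted p = 1.69e-04) and IDH1 to 0.844-fold. In RNA2 their folds were 1.14 and 1.19, and in RNA3 0.822 and 0.813, none called. Of 7 heme and iron genes, the porphyrin transporter ABCB6 rose 1.59-fold in RNA1 (5.78 to 9.14 CPM, adjusted p = 1.55e-04) and the heme transporter SLC48A1 fell to 0.853-fold. SLC48A1 was 1.13-fold in RNA2 and 0.703-fold in RNA3, neither called. ABCB6 was 1.37-fold and 1.59-fold in RNA2 and RNA3, with overlapping lines.

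Of 17 reductase and detoxification targets tested in RNA1, 4 rose and 2 fell, against 17.9% and 19.7% of all genes. ABHD4 rose 1.34-fold, TRIM16L 1.74-fold and NQO2, the paralog of NQO1, 1.31-fold (10.8 to 14.2 CPM, adjusted p = 0.00157). In RNA2 and RNA3 the folds were 1.098 and 1.081 for ABHD4 and 1.022 and 1.397 for TRIM16L, none called. NQO2 was 1.36-fold with no overlap in RNA2 (adjusted p = 0.204) and 1.18-fold in RNA3. ABCC2, a conjugate exporter related to ABCC1, was also higher at a log2FC of 0.55, while AKR1B1 and AKR1C2 fell by 0.28 and 0.58 on the log2 scale. None was called again: the log2FC in RNA2 and RNA3 was −0.18 and −0.40 for ABCC2, −0.14 and −0.27 for AKR1B1, and −0.29 and −0.35 for AKR1C2. These 3 were named after their values were seen. Background reads, higher in the control cells each time, were not subtracted from their levels, and the part of these reads was not tested.

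**Figure D5:**
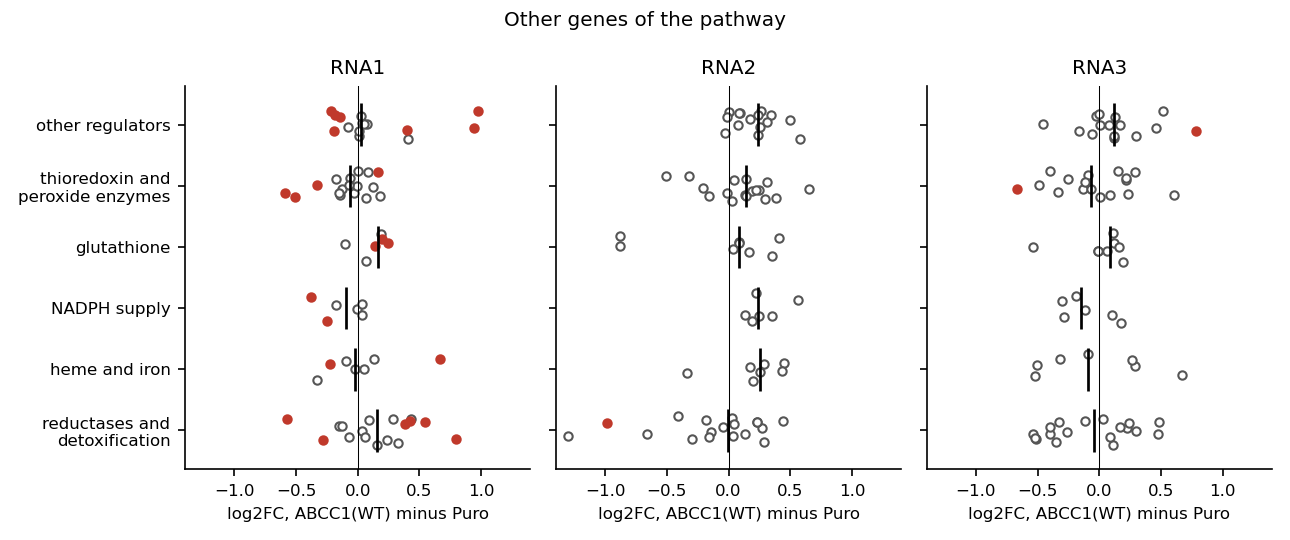
Log2FC of the other pathway genes in each experiment, 1 point per gene, filled red where the adjusted p-value is at most 0.05, with a black line at each list's median. RNA1 has 12 called genes on either side of 0, and RNA2 and RNA3 have 1 and 2.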

How the data were processed

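RNA of 18 libraries was sequenced, with the TruSeq RNA kit v2 in RNA1 according to the paper (the labels of RNA1 name this kit and the SMARTer Pico kit) and the SMARTer Pico kit v2 in RNA2 and RNA3. RNA2 and RNA3 are taken to be the cryopreserved and the newly transfected cells, from the sequence in which the paper presents them; the labels do not say. Per the submitters' processing notes and the file headers, the authors used bcl2fastq 2.18, STAR 2.7.3a and featureCounts of Subread 2.0.0 against GRCh37, and deposited raw counts of read pairs per gene, without regard to strand and without pairs that map to several places or overlap several genes. The counts covered 57905 Ensembl genes, 92 spike-ins and 6 vector features, and 51996 IDs were named from a table. The spike-ins were left out before the fits, which took in the Ensembl genes and the vector features. No spread beyond the weekly platings is described, so p-values measure the spread between these libraries, which may be technical. No pair of libraries was a duplicate (chi-square per degree of freedom 1.49 to 22.7).

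Each experiment was fitted on its own in R 4.3.3 with edgeR 4.0.16: filterByExpr at a minimum count of 10, TMM, robust quasi-likelihood test, two-sided, Benjamini-Hochberg adjustment over all genes tested. All 18 libraries fitted together gave the mean effect and the interaction of experiment and line, with a single spread per gene for all groups. All 9 members passed the filter in each fit. From each list the text names up to 3 called genes with the smallest adjusted p per experiment, and any gene called in all 3, plus the genes marked as named later. The members, lists and tests were chosen with earlier results of these data known. Alternatives were DESeq2 1.42.0, limma-voom (limma 3.58.1), RLE size factors, other filters, the replicate number as a block, the joint contrasts and each library left out; background subtraction and the limit of 10 CPM were added after seeing the data. Replicate numbers were not taken as pairs, since same-numbered libraries correlated at −0.142 to 0.0911. The fits were also run on simulated counts with known changes, and no result of that is given here. Promoters are from RefSeq, GRCh38.p14.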

Additional observations from a re-analysis of the deposited data

Results flagged for a closer look

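Of the 71 pathway genes in the joint fit outside the 9 members, 1 differed in its ABCC1 effect between the experiments. That is near the share of all genes, 1.19%. ABCC3, a conjugate exporter of the same family as ABCC1, had an adjusted p of 0.03225 in the edgeR quasi-likelihood test of that difference (Benjamini-Hochberg over 46225 genes). It had 13.6 ± 1.48 CPM in the RNA2 controls and 6.85 ± 2.37 CPM in the RNA2 ABCC1-overexpressing cells (SD, n = 3), a fold of 0.504 (adjusted p = 0.0358). In RNA1 its level was 1.26 ± 0.13 against 1.47 ± 0.15 CPM (fold 1.18), and in RNA3 32.6 ± 6.6 against 26.0 ± 5.7 CPM (fold 0.800), neither called. Background reads were also higher in the RNA2 controls, at 0.484 to 0.660 against 0.144 to 0.426 CPM per kilobase, and the summed level of 9 markers of other cell types was 81.8 to 109 against 76.0 to 87.3 CPM, with overlap. Of these markers 1 was called lower, VWF at 12.9 against 6.42 CPM, and 0 were called higher, with DCN at 20.01 against 24.0 CPM. The part of either in this difference was not tested.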

How the results depend on the processing

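NQO1 in RNA1 kept its direction and call in all 14 refits and NFE2L2 in 13 of 14, the exception being the RNA1 contrast of the joint fit (log2FC −0.17, adjusted p = 0.914). The joint fit shares a single spread per gene across all groups. RNA3 was the shallowest, at 8866994 to 13332413 read pairs per library. Members called in RNA1 were 4, but 1 with the joint contrast and 3 to 5 without 1 library. Members called in RNA2 rose from 0 to 2 (NQO1 and TXNRD1) with DESeq2 and to 1 with the joint contrast (NQO1). Members called in RNA3 rose from 0 to 1 (KEAP1) with DESeq2 and with genes of at least 10 CPM, and were 0 to 3 without 1 library. The 3 were called without the second control, where the genes called rose from 1021 to 2762. Members differing between experiments rose from 0 to 1 (NQO1) with DESeq2 and with at least 10 counts in every library, and were 0 to 1 without 1 library. Members with a common effect fell from 4 to 2 with genes of at least 10 CPM and were 3 to 4 without 1 library, PRDX1 being lost without RNA1 control 2, RNA1 ABCC1-overexpressing library 3 or RNA3 ABCC1-overexpressing library 2 (adjusted p 0.0501 to 0.0503).

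Genes called in RNA1 fell from 6382 to 4106 with genes of at least 10 CPM and to 1528 with the joint contrast (4637 to 7827 without 1 library). In RNA2 they went from 581 to 2849 with DESeq2, 1302 with limma-voom, 1086 with RLE factors, 1402 without a filter and 4924 with the joint contrast. Leaving out a control library, numbers 1 to 3, gave 301, 221 and 8, and leaving out an ABCC1-overexpressing library gave 208, 24 and 1359. In RNA3 they went from 1021 to 1597 with DESeq2, 1725 with at least 10 counts in every library and 2253 with genes of at least 10 CPM. Leaving out a library gave 2762 and 2047 (second control, first ABCC1-overexpressing) and between 394 and 470 for the other 4. The cause was not tested.

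The sign turned for values that did not pass the test. With genes of at least 10 CPM, NFE2L2 in RNA2 was −0.0183 and TXN in RNA2 −0.177, and the common log2FC was −0.109 for NFE2L2 and −0.0190 for TXN. With at least 10 counts in every library, TXN in RNA2 was −0.0449, and the common log2FC was −0.0914 for NFE2L2, −0.0844 for HMOX1 and −0.171 for SRXN1. With DESeq2 and with RLE factors the common log2FC was −0.0038 and −0.0040 for NFE2L2 and −0.0905 and −0.0892 for SRXN1. OSGIN1 in RNA3 was −0.000345 with limma-voom, and NQO1 in RNA3 0.0785 with background subtracted and 0.0333 with it charged to unshared exon bases only. Without 1 library, the log2FC ran from −0.0016 to 0.25 for TXN in RNA2, −0.52 to 0.26 for OSGIN1 in RNA2, −0.186 to 0.0203 for NQO1 in RNA3, −0.37 to 0.43 for OSGIN1 in RNA3, and −0.0714 to 0.0839 for the common effect on SRXN1.

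With the replicate number as a block, which no label ties to a shared culture or day, 3 members were called in RNA1 (TXNRD1 lost, log2FC 0.12, adjusted p = 0.0888), 0 in RNA2 and 0 in RNA3, 4 had a common effect and 0 differed between experiments. Genes called were 5356, 710 and 1885.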
